A study of Mus musculus with 36 samples.

Results

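The genes of the proteasome subunits were followed in the livers of wild-type mice (WT) and of mice without Bmal1 (KO) over a day. The set holds every row of the deposited count table whose symbol reads Psma, Psmb, Psmc or Psmd followed by a number, with a mean of at least 1 CPM (counts scaled to the size of the library) over the 36 libraries. It comprised 37 of the 21654 genes listed: 8 Psma, 9 Psmb, 6 Psmc and 14 Psmd genes. A further row with a matching symbol, Psmb11, lay at 0.0022 CPM; the lowest gene inside the limit, Psma8, had a mean of 1.15 CPM. All 37 genes passed the filter on low counts and were tested.

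The mice were C57BL/6, male and female, 6.4 to 13.9 weeks old, kept in days of 12 h light and 12 h darkness, with food and water freely available. Per the series title the knockout was present before birth; the labels give the KO mice also as cKO, with the knockout line obtained from another laboratory, and name no promoter or Cre driver. Livers were taken at Zeitgeber time (ZT, hours after lights on) 0, 4, 8, 12, 16 and 20 from 3 mice per genotype and time, which gave 12 groups and 18 mice per genotype, 9 labelled male and 9 labelled female. By its title, the series addresses how the loss of Bmal1 changes gene expression in the liver over the day.

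The proteasome degrades proteins that carry ubiquitin chains. Its core particle is a stack of rings of alpha subunits (Psma genes) and beta subunits (Psmb genes), and 3 of the beta subunits, encoded by Psmb5, Psmb6 and Psmb7, hold the active sites. In immune cells and after interferon, these are exchanged for inducible subunits encoded by Psmb8, Psmb9 and Psmb10, which form the immunoproteasome and favour peptides suited to MHC class I presentation. The regulatory particle contains a ring of ATPases (Psmc genes), which unfold substrates, and further subunits (Psmd genes), which bind and remove ubiquitin or build the lid. Psmb9 was not analysed here.

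The 250 bases before the annotated start are shown for the 2 inducible subunits, which were lower in KO liver, for Psmb5, whose protein Psmb8 replaces, and for Psmd11, the gene with the smallest p in the comparison of genotypes. They come from RefSeq on GRCm38.p6, a build other than the mm9 of the count table, and run 5′ to 3′ on the strand of the gene, at chr17:34197945-34198194 (plus strand) for Psmb8, chr8:105938393-105938642 (minus) for Psmb10, chr14:54617996-54618245 (minus) for Psmb5 and chr11:80428365-80428614 (plus) for Psmd11. Capitals mark a match to a searched motif.
Psmb8: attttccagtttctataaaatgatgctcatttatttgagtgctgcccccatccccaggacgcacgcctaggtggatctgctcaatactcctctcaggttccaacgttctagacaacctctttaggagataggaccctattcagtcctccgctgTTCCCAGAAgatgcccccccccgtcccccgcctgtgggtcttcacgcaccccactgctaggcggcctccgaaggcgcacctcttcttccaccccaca
Psmb10: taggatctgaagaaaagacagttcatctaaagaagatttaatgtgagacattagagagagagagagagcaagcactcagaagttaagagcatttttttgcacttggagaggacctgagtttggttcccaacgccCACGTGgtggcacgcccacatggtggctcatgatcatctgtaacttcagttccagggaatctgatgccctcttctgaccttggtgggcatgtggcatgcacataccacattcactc
Psmb5: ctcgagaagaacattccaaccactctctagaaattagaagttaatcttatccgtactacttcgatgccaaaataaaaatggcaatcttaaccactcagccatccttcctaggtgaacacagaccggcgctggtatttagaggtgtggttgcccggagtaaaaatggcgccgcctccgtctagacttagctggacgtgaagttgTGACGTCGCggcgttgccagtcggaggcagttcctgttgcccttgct
Psmd11: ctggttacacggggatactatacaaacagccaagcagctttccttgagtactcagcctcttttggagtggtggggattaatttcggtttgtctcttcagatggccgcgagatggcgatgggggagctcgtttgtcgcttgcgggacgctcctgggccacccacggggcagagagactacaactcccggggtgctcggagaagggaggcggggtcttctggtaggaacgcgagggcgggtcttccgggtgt

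Both strands were searched in these 250 bases for 6 motifs. The capitals in Psmb8 are the interferon gamma activated site TTCNNNGAA, 97 bases before the start, which 7.02% of all 32851 RefSeq promoters held. Those in Psmb10 are the E-box CACGTG, 116 bases before the start, found in 6.02% of all promoters. The E-box is the sequence through which BMAL1 and its partner CLOCK are known to act. In Psmb5 the capitals are the antioxidant response element TGACNNNGC, 47 bases before the start, held by 10.2% of all promoters. This is the kind of site bound by the NRF factors, which drive proteasome genes. The Psmd11 window held no match.

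RefSeq promoters were found for 30 of the 37 genes. The E-box stood in 3 of them (Psma4, Psmb10 and Psmd9) and the antioxidant response element in 5 (Psmb5, Psmb6, Psmc6, Psmd9 and Psmd12). The interferon-stimulated response element (GAAA, any 2 bases, then GAAA), held by 2.98% of all promoters, stood in 3 (Psmb3, Psmd4 and Psmd9). The CCAAT box (CCAAT) stood in 11, against 33.8% of all promoters, and the D-box TTATGTAA in none, against 0.819%. A match describes the letters in a window and shows no binding.

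Total counts were 12657858 to 12839653 per library. Arntl, the symbol for Bmal1 in the table, had group means of 0.997 to 38.9 CPM over the day in WT and 16.7 to 19.7 CPM in KO; its count may include reads from outside a deleted part. The 12 libraries of ZT16 and ZT20 stood apart from the other 24. The rank correlation of a gene's deviation with its transcript's GC content, over genes, was -0.60 to -0.16 in those 12 and 0.15 to 0.47 in the others. WT ZT16 replicate 3, labelled female, did not match its sex label. The 8 hepatocyte markers measured summed to 26462 to 47913 CPM per library. The labels place the 36 mice in 20 cages, 5 of which held WT and KO mice of the same time. They do not say which mice shared a litter. The main fit took the mice as independent, so its p-values may be too small if mice of a cage or litter were alike.

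Per length of transcript, the core particle genes were the most abundant and the inducible ones were among the lowest. The median over the 9 Psmb genes was 99.2 CPM per kilobase, that of the 8 Psma genes 85.8, of the 6 Psmc genes 62.9 and of the 14 Psmd genes 43.0. Psmb6 stood highest of all at 188 CPM per kilobase, with Psmb3 at 178 and Psmb7 at 165. The inducible genes Psmb8 and Psmb10 were at 17.5 and 23.8 CPM per kilobase. Psma8, an alpha subunit known from testis, was at 0.679, and Psmd10, which encodes an assembly chaperone of the regulatory particle, at 8.69. The 6 ATPase genes, whose products share 1 ring, lay in a narrow band of 51.6 to 73.4 CPM per kilobase. Summed over the 37 genes, levels were 3861 ± 765 CPM in WT and 4014 ± 705 CPM in KO (SD over all 6 times, n = 18 each). These SDs include the differences between times. Group means ran from 3279 to 4722 CPM in WT and from 3572 to 5159 CPM in KO (n = 3 each). The gap in the sum was not tested.

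Over the 6 times, KO livers had less mRNA of the 2 inducible catalytic subunits and slightly more of 5 genes of the regulatory particle. Psmb8 and Psmb10 fell by 0.60 and 0.48 on the log2 scale. Psmd11, Psmd8, Psmc1, Psmc4 and Psmd7 rose by 0.13 to 0.32. The other 30 genes did not pass the test, with log2 fold changes from -0.14 for Psma6 to 0.18 for Psmb3. In all, 7 of the 37 were called (edgeR quasi-likelihood test, Benjamini-Hochberg adjusted p under 0.05 over 13201 genes), or 18.9%, against 35.7% of all genes tested. By direction, 5 were higher, where 17.6% of all genes were, and 2 were lower, where 18.1% were. The median log2 fold change of the 37 was 0.05 and that of all genes tested 0.01, so the share called lay below that of all genes and the medians lay close together. The same 7 genes were called in a limma fit with cage as a random block. With cage as a fixed block in edgeR, 4 residual degrees of freedom were left in place of 23. None of the 7 was then called, and of all 13201 genes 49 were, in place of 4711. Psmb8 had -0.55 and Psmd11 0.43 (adjusted p 0.56 and 0.55), and all 7 had the same sign as without the block.

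**Figure D1:**
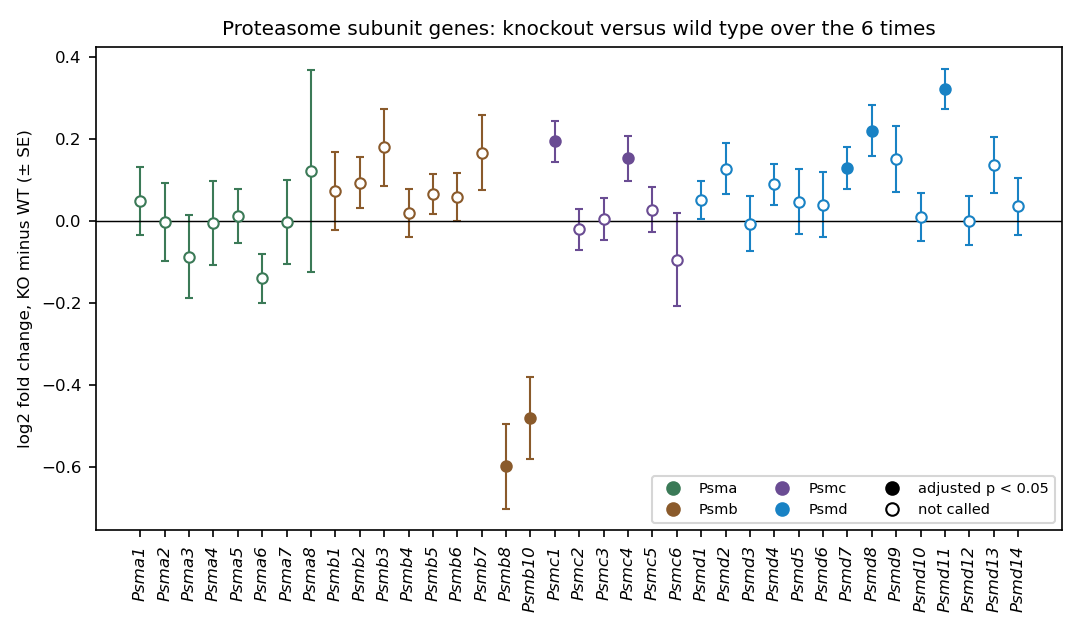
Log2 fold change of each gene, KO minus WT over the 6 times, with its standard error (y axis), for the 37 genes by subcomplex (x axis); filled points have an adjusted p under 0.05. Psmb8 at -0.60 and Psmb10 at -0.48 lie below all others, and Psmd11 at 0.32 is the highest.

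Psmb8 encodes the inducible subunit that takes the place of Psmb5. It lies on mm9 chromosome 17 from 34334666 to 34338399. Its level in WT had a lowest value of 22.2, a median of 31.2 and a highest of 49.9 CPM over 18 mice, and in KO 8.31, 21.6 and 37.1 CPM. The ranges overlapped, with the KO median below the lowest WT mouse. The log2 fold change was -0.60 ± 0.10 (SE; adjusted p 4.4e-05), or 1.51-fold higher in WT, and it remained called whichever 1 of the 36 libraries was left out.

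The gap of Psmb8 was widest at ZT12. The 3 WT livers then had 31.1, 44.8 and 45.0 CPM, and the 3 KO livers 8.31, 18.6 and 18.4 CPM. No KO value reached the lowest WT value. The log2 fold change at ZT12 was -1.38 ± 0.26 (adjusted p 5.2e-04), or 2.60-fold. At ZT16, by contrast, WT livers had 26.4, 26 and 23.7 CPM and KO livers 25.9, 20.7 and 21 CPM, with overlapping ranges and a log2 fold change of -0.17 ± 0.25 (adjusted p 0.73). At the other times the log2 fold change was -0.22 ± 0.25 at ZT0 (adjusted p 0.80), -0.45 ± 0.25 at ZT4 (adjusted p 0.38), -0.62 ± 0.25 at ZT8 (adjusted p 0.14) and -0.75 ± 0.25 at ZT20 (adjusted p 0.11). The sign was thus the same at all 6 times, with a call at ZT12. WT ZT16 replicate 3 did not match its female label, and replicates 1 and 2 were labelled male. KO ZT16 replicate 3 was labelled female. In WT, Psmb8 differed by sex, as given below, and the part of sex in the small gap at ZT16 was not tested.

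Psmb10, the inducible counterpart of Psmb7, lies on mm9 chromosome 8 from 108459628 to 108462292. Its lowest, median and highest levels were 15, 36.5 and 67.2 CPM in WT and 13.9, 24 and 43.9 CPM in KO. The log2 fold change was -0.48 ± 0.10 (adjusted p 4.3e-04), or 1.40-fold higher in WT, and no single library ended that call. In the males alone it was -0.47 (adjusted p 0.063). The 18 WT and 18 KO values overlapped widely when all times were put together.

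Within the light phase and at its end, the genotypes separated for Psmb10. At ZT8 WT livers had 67.2, 37.5 and 35.6 CPM and KO livers 22.6, 24.8 and 23.1 CPM. At ZT12 WT livers had 40.9, 47.4 and 49.6 CPM and KO livers 19.1, 24.4 and 20.5 CPM. At both times every WT mouse was above every KO mouse. The log2 fold change was -0.93 ± 0.25 at ZT8 (adjusted p 0.015) and -1.10 ± 0.25 at ZT12 (adjusted p 0.0034). The ZT8 call ended without WT ZT8 replicate 1 or without KO ZT8 replicate 3 (adjusted p 0.11 to 0.12). At ZT0, ZT4, ZT16 and ZT20 the ranges overlapped. The log2 fold change was then -0.05 ± 0.25, -0.34 ± 0.24, -0.15 ± 0.25 and -0.31 ± 0.25, with adjusted p from 0.52 to 0.97. At ZT16 the WT group again held the library that did not match its female label, beside mice labelled male. The part of sex in that value was not tested.

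The constitutive catalytic genes gave no call. Psmb5, of the chymotrypsin-like site, had a lowest, median and highest level of 66.6, 89.9 and 109 CPM in WT and 75.0, 92.2 and 112 CPM in KO, with a log2 fold change of 0.07 ± 0.05 (adjusted p 0.32). For Psmb6, of the caspase-like site, the 3 values were 105, 140 and 194 CPM in WT and 117, 148 and 199 CPM in KO, with 0.06 ± 0.06 (adjusted p 0.48). For Psmb7, of the trypsin-like site, they were 125, 159 and 371 CPM in WT and 134, 172 and 362 CPM in KO, with 0.17 ± 0.09 (adjusted p 0.16). All 3 genes had overlapping ranges and estimates above 0, opposite in sign to the inducible genes.

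Per length of transcript, Psmb8 stood at 0.225 ± 0.084 of Psmb5 in WT and at 0.138 ± 0.044 in KO (SD, n = 18 each). At ZT12 the ratio was 0.297 ± 0.121 in WT and 0.095 ± 0.030 in KO (n = 3 each). The ratio of Psmb10 to Psmb7 was 0.210 ± 0.110 in WT and 0.130 ± 0.069 in KO (n = 18 each). Inducible mRNA was thus the minor form in both genotypes, and its mean share was lower in KO. These ratios were not tested apart from the genes that form them.

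Markers of several non-parenchymal cell types were lower in KO livers too, where 18.1% of all genes tested were lower. Of 14 listed Kupffer cell markers 13 were measured, all of which fell, and their summed level was 364 ± 135 CPM in WT (range 154 to 631) and 232 ± 100 CPM in KO (110 to 464; SD, n = 18 each). At ZT12, where Psmb8 differed most, the sums were 366 CPM (154 to 628) in WT and 177 CPM (110 to 250) in KO. Of 14 lymphocyte markers, 8 were tested and 5 fell; their summed level was 17.8 ± 5.65 CPM in WT (5.56 to 26.8) and 10.5 ± 3.57 CPM in KO (3.85 to 16.4). Of 12 sinusoidal endothelial markers, 7 fell and none rose, with summed levels of 325 ± 62 CPM in WT (199 to 436) and 279 ± 58.2 CPM in KO (196 to 394). Of 9 stellate cell markers, 3 fell and none rose, with 311 ± 148 CPM in WT (91.3 to 615) and 251 ± 94.3 CPM in KO (87.8 to 491). Of 5 cholangiocyte markers, 1 fell and 1 rose, and of 8 hepatocyte markers, 2 rose and none fell. No Kupffer or lymphocyte marker was at 0 in all libraries. Their part in the fall of Psmb8 and Psmb10 was not tested. In whole liver, fewer cells of a type and less RNA per cell cannot be told apart.

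**Figure D2:**
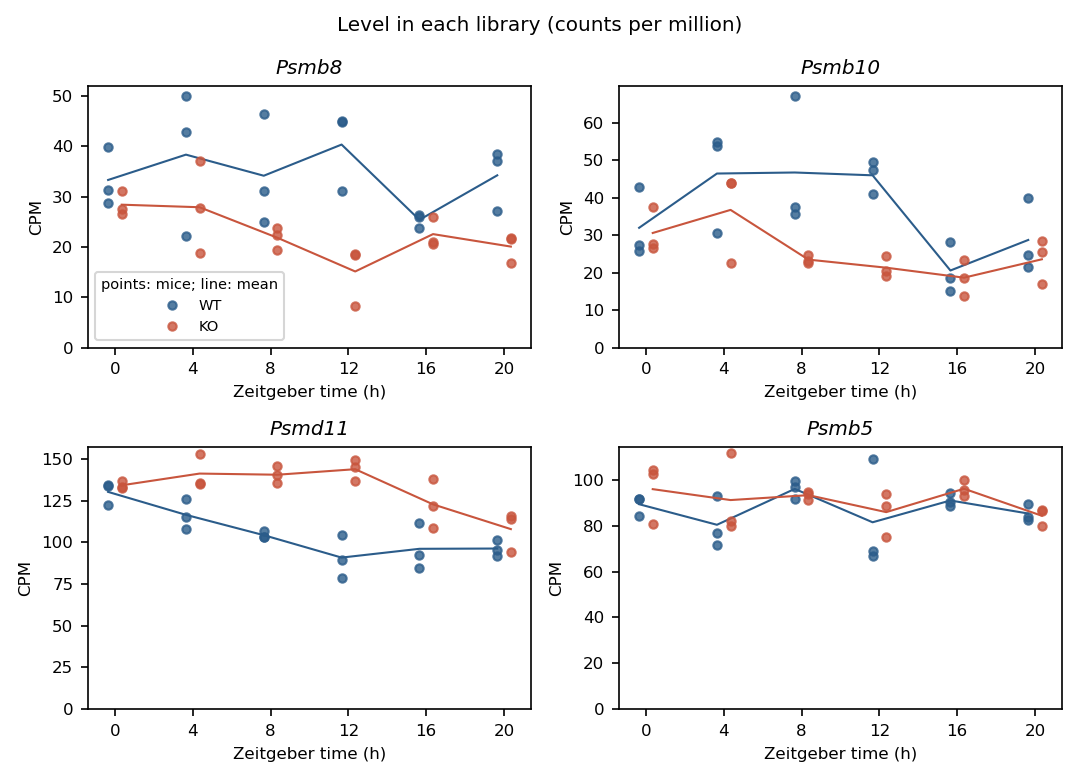
Level in each mouse (y axis, CPM) by Zeitgeber time (x axis, hours) for Psmb8, Psmb10, Psmd11 and Psmb5; points are mice, blue WT and red KO, and lines join the means of 3 mice. At ZT12 the KO points of Psmb8 (8.31 to 18.6 CPM) and Psmb10 (19.1 to 24.4 CPM) lie below and those of Psmd11 (137 to 149 CPM) above all WT points, while Psmb5 overlaps.

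Several genes of MHC class I presentation were lower in KO along with the inducible subunits. Of a list of 14 such genes and interferon response factors, 6 fell, 1 rose and 7 did not pass the test, so that 50% were called, against 35.7% of all genes, of which 18.1% were lower. The list's median log2 fold change was -0.09. Nlrc5, an activator of MHC class I genes, had 33.5 ± 8.78 CPM in WT and 17.2 ± 8.75 CPM in KO (log2 fold change -0.99 ± 0.12, adjusted p 2.3e-07). H2-K1, a class I heavy chain, fell by 0.69 and H2-D1, another, by 0.44 on the log2 scale (adjusted p 6.9e-08 and 2.3e-06). The interferon regulatory factor Irf8, typical of myeloid cells, fell by 0.71 (adjusted p 1.6e-05). Irf1 fell by 0.32 and Tap2, of the peptide transporter, by 0.28 (adjusted p 0.0083 and 0.018). Canx, a chaperone of many glycoproteins, rose by 0.17 (adjusted p 0.015).

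Among the 14 non-ATPase genes of the regulatory particle, 13 had an estimate above 0 and 3 were called higher. This was 21.4%, near the 17.6% of all genes tested that were higher. The median log2 fold change of the 14 was 0.07 and that of all genes tested 0.01. Psmd11, which encodes a lid subunit that bridges lid and core, lies on mm9 chromosome 11 from 80242117 to 80286750. Its lowest, median and highest levels were 78.6, 104 and 134 CPM in WT and 94.3, 135 and 153 CPM in KO. The ranges overlapped. The log2 fold change was 0.32 ± 0.05 (adjusted p 5.7e-06), or 1.25-fold, and no single library ended the call.

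In WT, Psmd11 fell from 122, 134 and 134 CPM at ZT0 to 104, 89.6 and 78.6 CPM at ZT12. In KO it had 132, 137 and 133 CPM at ZT0 and 137, 145 and 149 CPM at ZT12. The genotypes overlapped at ZT0, with a log2 fold change of 0.04 ± 0.12 (adjusted p 0.94), and every KO mouse exceeded every WT mouse at ZT12, with 0.66 ± 0.12 (adjusted p 3.1e-04). At ZT8 WT livers had 107, 103 and 103 CPM and KO livers 146, 135 and 140 CPM, with 0.43 ± 0.12 (adjusted p 0.019). That call ended without WT ZT8 replicate 2 or 3 and without KO ZT8 replicate 1 or 3 (adjusted p 0.073 to 0.078). At ZT16 the log2 fold change was 0.36 ± 0.12 (adjusted p 0.059 by edgeR and 0.032 by DESeq2).

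Psmd8, a lid subunit, had 92.7, 120 and 224 CPM as lowest, median and highest level in WT and 120, 144 and 220 CPM in KO (log2 fold change 0.22 ± 0.06, adjusted p 0.0062). Psmd7, the partner of the deubiquitinase Psmd14, had 58.8, 72.0 and 86.5 CPM in WT and 67.2, 79.2 and 90.6 CPM in KO (0.13 ± 0.05, adjusted p 0.046). Ranges overlapped for both. The call of Psmd8 held with any 1 library left out. That of Psmd7 ended without 22 of the 36 libraries (adjusted p 0.053 to 0.089), namely all except replicate 1 of WT ZT4, ZT8 and ZT12, of KO ZT4, ZT12, ZT16 and ZT20, replicate 2 of WT ZT8, ZT16 and ZT20 and of KO ZT0, ZT8 and ZT20, and replicate 3 of WT ZT16.

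Of the 6 ATPase genes, 2 (33.3%) were called, both higher in KO, where 17.6% of all genes tested were higher. Psmc1, whose product is known to help open the gate of the core, had 78.5, 110 and 124 CPM as lowest, median and highest level in WT and 105, 122 and 132 CPM in KO (0.19 ± 0.05, adjusted p 0.0033). At ZT12 it had 104, 88.8 and 93.4 CPM in WT and 123, 121 and 128 CPM in KO, without overlap (0.38 ± 0.12, adjusted p 0.041). The ZT12 call of Psmc1 depended on 10 libraries, each of which ended it when left out (adjusted p 0.050 to 0.15): the 6 of ZT12, replicate 2 of WT ZT0, WT ZT8 and KO ZT0, and replicate 1 of KO ZT16. Psmc4 had 62.9, 94.9 and 110 CPM in WT and 81.1, 105 and 123 CPM in KO (0.15 ± 0.05, adjusted p 0.029). That call ended without WT ZT12 replicate 3, WT ZT16 replicate 1, KO ZT8 replicate 3, KO ZT16 replicate 2 or KO ZT20 replicate 3 (adjusted p 0.052 to 0.059). Of the 5 genes called higher, Psmd11 passed in the males alone and in the females alone (adjusted p 0.039 and 0.011), and the other 4 passed in neither. The females-alone fit kept WT ZT16 replicate 3, which did not match its female label. Without WT ZT12 replicate 3, KO ZT8 replicate 3, KO ZT16 replicate 2 or KO ZT20 replicate 3, Psmc4 and Psmd7 were both lost, which left 3. For Psmc2, Psmc3, Psmc5 and Psmc6 log2 fold changes ran from -0.09 to 0.03.

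None of the 8 alpha subunit genes was called by edgeR, and 1 had an unadjusted p under 0.05. That gene, Psma6, had 131 ± 27.8 CPM in WT and 121 ± 32.8 CPM in KO (SD, n = 18 each), with a log2 fold change of -0.14 ± 0.06 (adjusted p 0.071 by edgeR and 0.044 by DESeq2, where it was the 1 alpha gene called). The estimates of the others ran from -0.09 for Psma3 to 0.12 for Psma8. Psma8, with 3 to 47 reads per library, had the widest standard error, 0.25.

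By time, calls were made at ZT8 and ZT12. At ZT8 2 genes were called (8.56% of all genes tested were) and at ZT12 4 genes (11.9%). At ZT0 and ZT4 edgeR and DESeq2 called none (1.97% and 3.56% of all genes by edgeR), with an unadjusted p under 0.05 for 0 and 2 genes. At ZT16 edgeR called none and DESeq2 1, Psmd11 (8.61% of all genes by edgeR), with 1 gene at an unadjusted p under 0.05. At ZT20 neither tool called any (3.38% by edgeR), with 2 genes at an unadjusted p under 0.05. The fits that follow each leave out 1 library, and the share of all genes they called is not given here. With WT ZT16 replicate 1 left out edgeR called 5 genes at ZT16, and with KO ZT16 replicate 2 left out 1. At ZT20 it called 1 without WT ZT20 replicate 2 or without KO ZT12 replicate 1. At ZT8 it called 1 without any of the 3 WT livers or KO replicate 1 of that time and 0 without KO ZT8 replicate 3.

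Whether the 6 differences of a gene were equal was tested directly, and no proteasome gene passed (1.67% of all genes did; edgeR and DESeq2 called none). Unadjusted p was under 0.05 for 4 genes: Psmd11 (adjusted p 0.29), Psmb10 (0.35), Psmb8 (0.36) and Psmd1 (0.47), from edgeR. Psmd1, a scaffold of the regulatory particle, had 129, 114 and 105 CPM in WT and 136, 155 and 148 CPM in KO at ZT12, without overlap, and 132, 125 and 124 CPM against 120, 121 and 110 CPM at ZT0, in the other direction. The change of its difference with time was not called. With the 12 late libraries, those of ZT16 and ZT20, left out, the test over the remaining 4 times passed for Psmd11 (edgeR, adjusted p 0.015) and Psmb10 (0.035). The share of all genes that passed in that fit is not given here. These calls therefore do not set the 2 genes apart from all genes.

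Most proteasome genes varied with time of day, in both genotypes. In a fit of a 24 h cosine curve, 24 of the 37 genes were called rhythmic in WT and 24 in KO, 64.9% in each, against 56.4% and 48.3% of all genes tested. Both genotypes shared 20 of these genes; 4 were called in WT alone (Psmc1, Psmc2, Psmd4 and Psmd9) and 4 in KO alone (Psma5, Psmb8, Psmc3 and Psmd12). In WT, 16 of the 24 peaked between ZT16.8 and ZT19.2, with peak-to-trough folds of 1.44 to 2.42, and 8 between ZT0.8 and ZT7.7. In KO, 19 peaked between ZT16.3 and ZT19.6 and 5 between ZT1.1 and ZT7.4. In the alpha ring, 6 of the 8 Psma genes were called in WT and 7 in KO, and each of these peaked between ZT17.2 and ZT18.8. Psma5 was not called in WT and Psma8, the testis-type subunit, in neither genotype. With each library's GC trend removed, Psma4 and Psma7 alone of the alpha genes called in WT were still called there. In KO, Psma4, Psma5, Psma6 and Psma7 were still called. With cage as a fixed block, 14 of the 24 genes were still called in WT and 12 of the 24 in KO. Over all 13201 genes tested, that fit called 3517 in WT and 2105 in KO, against 7451 and 6382 without the block. Summed over the 37 genes, the level was highest at ZT16 in both genotypes, at 4722 ± 1299 CPM in WT and 5159 ± 324 CPM in KO, and lowest at ZT12, at 3279 ± 525 and 3572 ± 297 CPM (SD, n = 3 each).

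**Figure D3:**
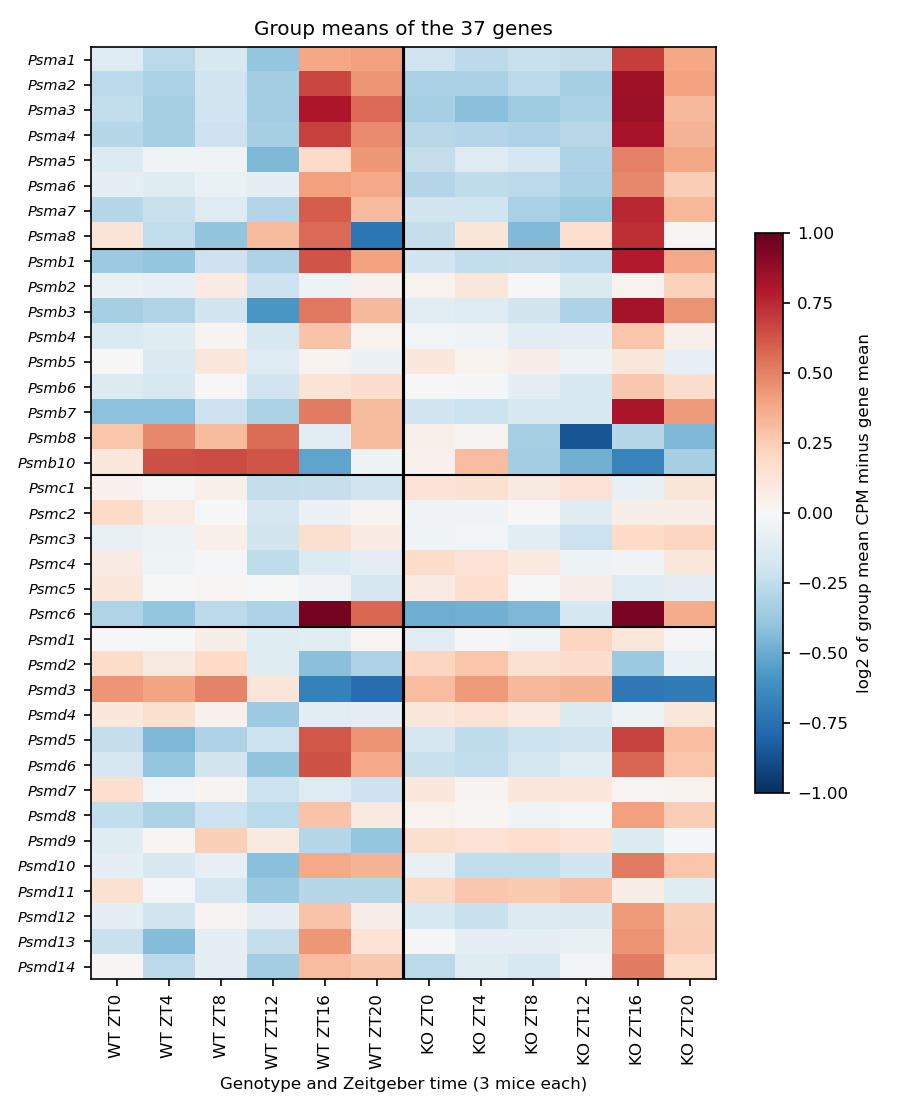
Log2 of each group's mean CPM minus the gene's mean over the 12 groups (colour, from -1 blue to 1 red), for the 37 genes (rows, by subcomplex) in WT and KO groups by Zeitgeber time (columns, 3 mice each). Most Psma genes, Psmb1, Psmb3, Psmb7 and Psmc6 are red at ZT16 and ZT20 in both genotypes, and Psmd3 is blue there. Psmb8 and Psmb10 have lower means in KO than in WT at ZT8 and ZT12, though Psmb8 was not called at ZT8.

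Psmd3, a lid subunit, peaked by day. Its WT group means from ZT0 to ZT20 were 115 ± 5.38, 111 ± 3.02, 119 ± 7.25, 91.7 ± 9.43, 52.6 ± 12.6 and 49.5 ± 14.2 CPM (SD, n = 3 each). The KO means were 104 ± 4.06, 113 ± 5.44, 105 ± 4.29, 107 ± 6.18, 51.1 ± 1.95 and 51.8 ± 11.4 CPM. Levels at ZT16 and ZT20 were thus lower than at the other times in both genotypes. The fitted peak was at ZT5.5 with a 2.56-fold range in WT (adjusted p 3.8e-05) and at ZT6.0 with 2.37-fold in KO (2.0e-04).

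Psmc6, an ATPase, followed the opposite course. Its WT means were 97.5 ± 5.71, 92.1 ± 1.60, 101 ± 1.13, 97.1 ± 7.29, 233 ± 144 and 179 ± 78.0 CPM, and its KO means 85.9 ± 7.38, 86.1 ± 6.57, 88.2 ± 1.12, 106 ± 5.62, 232 ± 51.9 and 155 ± 55.5 CPM. The 3 WT livers of ZT16 had 397, 125 and 178 CPM. All were above the highest WT liver of the first 4 times, and they lay far apart. The peak lay at ZT17.4 with a 2.42-fold range in WT (adjusted p 6.0e-04) and at ZT16.8 with 2.58-fold in KO (4.5e-04).

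Psmd5 and Psmd10, assembly chaperones of the regulatory particle, and 2 further core and lid genes also rose at night, while Psmd9, another such chaperone, peaked by day in WT. Psmd5, a chaperone, had WT means of 42.3 ± 1.17, 36.6 ± 1.43, 40.4 ± 2.14, 43.1 ± 3.12, 76.7 ± 33.1 and 68.2 ± 13.9 CPM, a 2.08-fold range with a peak at ZT17.5 (adjusted p 9.9e-05). Psmd6, of the lid, had 79.9 ± 3.67, 68.7 ± 5.05, 79.1 ± 8.92, 68.5 ± 14.2, 140 ± 56.8 and 117 ± 31.3 CPM, a 1.90-fold range with a peak at ZT17.9 (4.8e-04). In both, WT means at ZT16 and ZT20 were the highest of the day, and so was the spread between mice at ZT16. Psmd10, another chaperone, had KO means of 11.6 ± 0.964, 10.3 ± 0.672, 10.3 ± 0.643, 10.6 ± 1.86, 17.5 ± 1.83 and 14.8 ± 3.03 CPM (1.68-fold, adjusted p 8.8e-04). Psma6, of the alpha ring, had KO means of 101 ± 9.97, 104 ± 6.30, 102 ± 2.83, 98.5 ± 3.78, 172 ± 11.6 and 147 ± 40.4 CPM (1.65-fold, 9.2e-04). In both, KO means differed little over the first 4 times. Psmd9 had its highest WT mean at ZT8, 42.8 ± 2.42 CPM, and its lowest at ZT20, 27.7 ± 11.6 CPM (n = 3 each), with a fitted peak at ZT7.7 (adjusted p 0.0058); in KO it was not called (0.32).

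The inducible gene Psmb10 was high by day in WT, with a peak at ZT6.9 and a 2.04-fold range (adjusted p 5.4e-04), and peaked at ZT2.8 with a 1.78-fold range in KO (0.0040). Psmb5, by comparison, had ranges of 1.01-fold and 1.03-fold (adjusted p 0.98 and 0.94). Psmb8 was called in KO (1.57-fold, peak ZT1.1, adjusted p 0.049) and not in WT (1.23-fold, adjusted p 0.49), and its KO call ended without 24 of the 36 libraries (adjusted p 0.051 to 0.13); it held without replicates 1 and 3 of WT ZT4, 3 of WT ZT8, 2 and 3 of WT ZT12, 3 of WT ZT16, 2 of KO ZT4, 1 of KO ZT8, 1 and 2 of KO ZT16 and 1 and 3 of KO ZT20. Whether a rhythm differed between genotypes was tested directly. No proteasome gene passed with edgeR (2.23% of all genes did) and 3 had an unadjusted p under 0.05; DESeq2 called 1, Psmd11, and edgeR called 1 without WT ZT16 replicate 1. The smallest adjusted p values by edgeR were 0.084 for Psmd11, 0.14 for Psmb10, 0.26 for Psmd1 and 0.60 for Psmc2. In WT, Psmd11 peaked at ZT1.9 with a 1.38-fold range (adjusted p 0.0014), and in KO at ZT7.4 with 1.28-fold (0.017). The KO call of Psmd11 ended without KO ZT20 replicate 1 or 3 (0.065 to 0.098). Psmc2, an ATPase, had a highest WT mean of 105 ± 1.93 CPM at ZT0 and a lowest of 81.6 ± 13.8 CPM at ZT12; in KO its means lay between 84.4 ± 7.06 and 96.0 ± 9.31 CPM.

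The late libraries differed from the others in their GC trend, so these time courses were set beside transcript GC content. The 7 proteasome genes with a transcript GC content under 44% had a median log2 difference, ZT16 and ZT20 minus the other times, of 0.59 in WT and 0.74 in KO. For all 2450 genes tested in that band, the medians were 0.54 and 0.63. The 7 genes of 44 to 48% had 0.47 and 0.60, against 0.22 and 0.27 for all genes of that band. At 48 to 52% the 10 proteasome genes had -0.0024 in WT and 0.12 in KO, and all genes -0.05 and -0.06. Over 52% the 13 proteasome genes had 0.04 and -0.02, and all genes -0.48 and -0.53. The 2 extremes of GC content, Psmc6 at 37% and Psmd3 at 58.3%, were the genes with the widest rise and fall. In all 4 bands and both genotypes, the median of the proteasome genes stood above that of all genes.

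**Figure D4:**
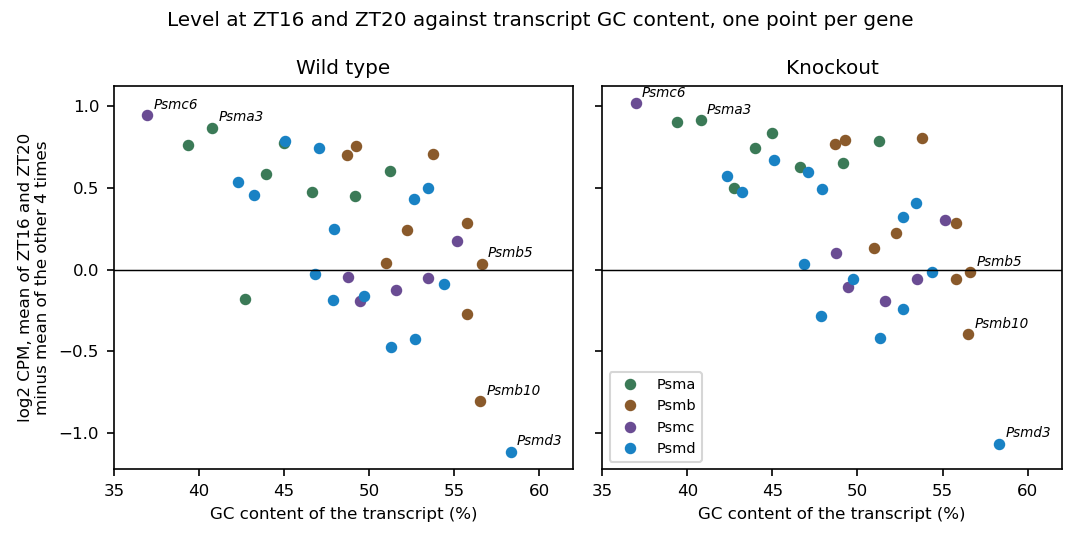
Log2 CPM at ZT16 and ZT20 minus that at the other 4 times (y axis) against the GC content of the transcript in percent (x axis), 1 point per gene, WT on the left and KO on the right, coloured by subcomplex. In both, Psmc6 at 37% is the highest point and Psmd3 at 58.3% the lowest. Of the 13 genes over 52%, 7 lie above 0 in WT and 6 in KO.

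With the GC trend of each library removed, an alternative chosen after the data were seen, 21 genes were rhythmic in WT and 20 in KO (44.5% and 25.5% of all genes). Of the 24 called before, 15 remained in each genotype. Psmd3 kept its peak at ZT5.2 in WT with a smaller range, 1.49-fold (adjusted p 3.9e-04), as did Psmd5 at ZT17.4 with 1.62-fold (7.6e-04). Psmc6 had 1.13-fold in WT and 1.21-fold in KO (adjusted p 0.31 and 0.10) and was no longer called, and neither was Psma3, Psmd10 or Psmb10 in either genotype. Psmb5, flat before, was called in both (1.63-fold, adjusted p 0.0012, and 1.66-fold, 0.0024). Of the genes then called, 13 of 21 in WT and 18 of 20 in KO peaked between ZT15 and ZT20. Without the 12 libraries of ZT16 and ZT20, 5 genes were called in WT (16.3% of all genes), 4 of them among the 24 (Psmc2, Psmd3, Psmd4 and Psmd11), and 1 in KO (Psmb10; 0.724%). By contrast, the KO versus WT estimates of Psmb8, Psmb10 and Psmd11 over all times changed little: with the GC trend removed they were -0.59, -0.46 and 0.31, and without ZT16 and ZT20 -0.67, -0.61 and 0.34, all called.

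Some calls rested on few libraries at these times. The WT calls of Psma7 and Psmb3 ended without WT ZT16 replicate 1 or WT ZT20 replicate 3, that of Psmc1 without WT ZT16 replicate 1, and that of Psmc2 without any of 5 libraries of ZT0, ZT12 and ZT16 (replicates 1 and 2 of WT ZT0, 2 and 3 of WT ZT12 and 3 of WT ZT16). In KO, Psmd13 was lost without KO ZT16 replicate 1, and Psmc3 and Psmd8 without any of 9 libraries each, all KO. The 9 were replicates 1 and 3 of ZT16 and 2 and 3 of ZT20 and 1 and 2 of ZT8 for both genes, with the 3 of ZT12 for Psmc3, and with replicate 1 of ZT0 and 1 and 3 of ZT4 for Psmd8.

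By sex, 6 of the 37 genes were called, 16.2% and near the 13.4% of all genes tested. Females had more Psmb10 and less of 5 other genes, where 6.94% of all genes were higher and 6.51% lower. These tests kept the library that did not match its label as female, while the means below leave it out. In a fit with a sex term per genotype, the WT estimate of Psmb10 was 0.47 with that library (edgeR, adjusted p 0.079). Without it the estimate was 0.59 (adjusted p 0.016). Psmb10 was higher in females by 0.42 ± 0.11 on the log2 scale (adjusted p 0.0099), with 47.2 ± 13.3 CPM in WT females (SD, n = 8, without the library that did not match its label) and 29.5 ± 7.80 CPM in WT males (n = 9). In KO the means were 29.4 ± 9.94 and 22.1 ± 4.45 CPM (n = 9 each). Psmb5 fell by 0.21 ± 0.05 in females (adjusted p 0.0064), with 78.2 ± 8.75 CPM in WT females and 95.1 ± 6.09 CPM in WT males, and 84.5 ± 6.68 and 97.7 ± 7.71 CPM in KO. Psmc4 fell by 0.22 ± 0.06 (0.0095), Psmd8 by 0.23 ± 0.07 (0.017), Psmd13, of the lid, by 0.24 ± 0.07 (0.024) and Psmd14, the lid deubiquitinase, by 0.23 ± 0.07 (0.029). Estimates were below 0 in females for 34 of the 37 genes, though 31 of the 37 were not called. The median estimate was -0.12 for the 37 and -0.02 for all genes tested. The calls of Psmd13 and Psmd14 ended without WT ZT4 replicate 3, WT ZT12 replicate 1, KO ZT4 replicate 2 or KO ZT20 replicate 1 or 2 (adjusted p 0.051 to 0.097), and that of Psmd14 also without KO ZT0 replicate 3. Each of the first 5 of these libraries left 3 genes called lower; without WT ZT20 replicate 2 or 3 the number was 10 or 9, and without KO ZT12 replicate 1 or 3 there were 2 called higher.

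In WT, Psmb8 separated the sexes, and in KO it did not. The library that did not match its label was left out of these ranges. WT females had 37.1 to 49.9 CPM (n = 8) and WT males 22.2 to 31.3 CPM (n = 9), without overlap. KO females had 8.31 to 37.1 CPM and KO males 18.4 to 27.5 CPM (n = 9 each). A test of whether the KO versus WT difference depended on sex was added after these values were seen. It gave Psmb8 a log2 difference of -0.46 ± 0.21 (unadjusted p 0.037, adjusted p 0.64) and, without the library that did not match its label, -0.58 ± 0.20 (unadjusted p 0.0085, adjusted p 0.31), both from edgeR. No proteasome gene was called by it and 3 had an unadjusted p under 0.05 (0.0985% of all genes were called, and 0.299% without the library that did not match its label). In males alone the KO versus WT difference of Psmb8 was -0.35 and in females alone -0.79 on the log2 scale. The females-alone fit kept the library that did not match its label, as the only WT library labelled female at ZT16. The summed Kupffer cell markers were 472 ± 123 CPM in WT females and 276 ± 68.6 CPM in WT males, and 295 ± 104 and 169 ± 40.6 CPM in KO. Their part in the sex difference was not tested.

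The lists of activators and inhibitors, of assembly genes and of receptors and shuttle factors had shares called below the 35.7% of all genes tested. Every call in these lists was higher in KO, where 17.6% of all genes tested were higher. Of 5 activator and inhibitor genes, 1 (20%) was called: Psmf1, the inhibitor, rose from 24.4 ± 8.53 to 29.4 ± 9.35 CPM (SD, n = 18 each; log2 fold change 0.29 ± 0.08, adjusted p 0.0034). Psme2, a subunit of the interferon-induced activator, had -0.15 ± 0.06 (adjusted p 0.072), and its partner Psme1 had -0.00087 ± 0.07 (0.99). Of 6 genes listed for assembly, which include Ublcp1, a phosphatase that acts on the proteasome, 1 (16.7%) was called, the core chaperone Psmg2, higher by 0.23 ± 0.09 (0.036). Of 14 receptors, deubiquitinases and shuttle factors, 4 (28.6%) rose and none fell, with a list median of 0.07. Ubqln1, a shuttle factor that carries ubiquitinated proteins to the proteasome, went from 145 ± 19.4 to 184 ± 22 CPM (0.35 ± 0.05, adjusted p 1.9e-06), and Ubqln2, its paralogue, Uchl5, a deubiquitinase, and Ddi2, a shuttle protease, rose by 0.24, 0.21 and 0.23.

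Of 10 tested regulators of proteasome transcription, 3 fell and 1 rose, 40% in all and near the 35.7% of all genes. Nfe2l1, the factor known to raise proteasome genes when degradation is impaired, had 119 ± 24.6 CPM in WT and 111 ± 29.5 CPM in KO (log2 fold change -0.12 ± 0.05, adjusted p 0.076). Bach1, a repressor at the same kind of site, fell from 51.9 ± 22.1 to 26.7 ± 4.38 CPM (-0.89 ± 0.09, adjusted p 2.0e-08). Of the small Maf partners, Maff fell from 3.57 ± 2.4 to 0.815 ± 0.523 CPM (-1.90 ± 0.26, adjusted p 1.4e-06) and Mafg by 0.29 (0.028). Foxo4 rose by 0.23 (0.0031). Of 11 ubiquitin genes and enzymes that activate or conjugate it, 36.4% were called, a share near that of all genes: 3 rose (Rps27a by 0.42, Ube2l3 by 0.16 and Ube2d2 by 0.18) and 1, the activating enzyme Uba6, fell by 0.23 (adjusted p 0.0044, 0.0048, 0.026 and 0.047).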

How the data were processed

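Liver mRNA was sequenced from 36 mice. Per the submitters' processing notes, CASAVA, STAR 2.4.0f1 and the mm9 genome were used; the counting program and its annotation are not given in the sources used here. The deposited values are counts, whole reads per gene on the sense strand per the file headers. Total counts lie within 12657858 and 12839653; replicates differed by 11.3 to 234 times Poisson variance over 36 pairs, so the spread between mice limits the precision.

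Counts were fitted with edgeR 4.0.16 in R 4.3.3: filterByExpr on the 12 groups (minimum count 10, total 15) left 13201 genes tested and 8453 not tested, TMM scaling, a mean per group and labelled sex as covariate, quasi-likelihood F tests, and Benjamini-Hochberg adjustment over the 13201 genes, called under 0.05. Contrasts took KO minus WT averaged over the 6 times, within each of them, and the hypothesis that all 6 are equal. A cosinor with a 24 h period per genotype gave rhythms; it cannot tell them from other differences between times. The test of sex by genotype was added after the data were seen. CPM use TMM-scaled totals. Log2 fold changes are ± SE from the F statistic. The scripts were tested on simulated data.

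Transcript length and GC content are of the longest protein-coding GENCODE M21 transcript. The genes with values were chosen by rule: members called over the 6 times, the 4 of smallest p for the equality, rhythm and rhythm difference tests, the 3 of smallest p per time and for sex, the catalytic genes, and up to 4 genes per list over the 6 times (Irf1, Tap2 and Canx fall outside it, as do Psma3, Psme1, Psme2 and Nfe2l1, named after their values were seen). The genes and lists were chosen with earlier results of these data known. Symbols of the lists that were not analysed here include Sem1, Ecm29 and Paaf1.

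Alternatives were DESeq2 1.42.0, its size factors in edgeR, no filter, a minimum mean of 1 CPM, no sex covariate, age as covariate, 1 sex alone, 1 time alone, no ZT16 and ZT20 libraries, each library left out, and, added later, removal of each library's GC trend, limma 3.58.1 (voom) with and without the labelled cage as a random block, and edgeR with cage as a fixed block (not for sex, since 1 cage alone holds both labelled sexes).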

Additional observations from a re-analysis of the deposited data

How the results depend on the processing

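Of 178 recomputed counts of called genes, 147 stayed within 1.5 times the reported one, and of 504 with 1 library left out, 481 did; no named gene that was called reversed its sign. DESeq2 called 1 gene at ZT16 and 1 for a differing rhythm, where edgeR called 0. Without a filter on low counts, 3 genes were called higher over the 6 times in place of 5, and 1 at ZT8 in place of 2. Without ZT16 and ZT20, 4 genes were called lower over the times in place of 2, 3 at ZT4 in place of 0, 8 at ZT12 in place of 4, 2 for unequal differences, 2 for a differing rhythm, 5 for a rhythm in WT, 1 for a rhythm in KO, and by sex 2 higher and 10 lower. Over all 12981 genes tested without ZT16 and ZT20, 2113 were called for a rhythm in WT and 94 in KO. With the libraries of 1 time alone, 2 proteasome genes were called at ZT4. With cage as a fixed block, 0 were called higher and 0 lower over the times, 0 at ZT8 and 0 at ZT12. For a rhythm, 14 were called in WT and 12 in KO. Over all genes, the fixed block left 49 called over the times, 16 at ZT8 and 96 at ZT12. For a rhythm it left 3517 of all genes in WT and 2105 in KO. With cage as a random block in limma, where the within-cage correlation was -0.091, 2 were called higher by sex in place of 1; the other counts stayed within 1.5 times. In males alone 1 was called higher and 1 lower over the times, 0 at ZT8, 0 at ZT12 and 6 for a rhythm in WT. In females alone 1 was called higher, 0 at ZT8, 4 at ZT20, 15 for a rhythm in WT and 1 for a rhythm in KO. For the other counts here, and with 1 library left out, the share of all genes is not given. Those counts therefore do not set the proteasome genes apart from all genes. The females-alone fit kept WT ZT16 replicate 3, which did not match its female label. The single-sex fits and those without ZT16 and ZT20 have fewer samples, and the fixed block leaves 4 residual degrees of freedom. For the others the cause was not tested.

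With each library left out in turn, the genes called numbered 3 to 6 higher and 2 to 3 lower over the 6 times, 0 to 0 at ZT0 and at ZT4, 0 to 2 at ZT8, 3 to 6 at ZT12, 0 to 5 at ZT16, 0 to 1 at ZT20, 0 to 0 for unequal differences, 21 to 26 for a rhythm in WT and also in KO, 0 to 1 for a differing rhythm, and by sex 1 to 2 higher and 3 to 10 lower. Replicate numbers were given in accession order and pair no mice, so no block used them. With 3 mice per group, a difference at 1 time rests on a spread pooled over all groups. The 12 libraries of ZT16 and ZT20 hold all the mice of those times, so their GC trend and the time of day cannot be told apart.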
